A study of Homo sapiens with 12 samples.

Results

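The transcriptome of cells labelled H520 that carry *L1-FGGY* was compared with that of control cells with the same label, both kept in the vehicle DMSO without an inhibitor, to describe the lineage and the state of the 2 untreated cell populations. The comparison holds 6 of the 12 libraries sequenced, 3 in each group, chosen by their labels alone. H520 is an established human line from a lung squamous cell carcinoma. *L1-FGGY* is a chimeric transcript in which a LINE-1 retrotransposon element is joined to the *FGGY* gene, and it was stably overexpressed from a lentivirus (OV-L1-FGGY). The control libraries carry DMSO alone in their label, and were taken to be the OV-CTRL line, which lacks *L1-FGGY*. Both lines were grown in RPMI1640 with serum, and 0.2% DMSO was added when the medium was replaced 5 h after seeding. Each construct is represented by a single line, so the construct and the cell population that carries it cannot be told apart, nor can fewer expressing cells from less RNA per cell. In all, 117 genes were read only in OV-L1-FGGY cells and 241 only in control cells, and whether both populations came from the same stock of H520 cells was not tested. The labels do not say whether the libraries of a group came from separate cultures, and p-values therefore measure only the spread between these libraries, which may be technical.

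Squamous lung cancers arise in an epithelium whose basal cells depend on the transcription factors *TP63* and *SOX2* and on paired keratins such as *KRT5* and *KRT14*, whereas alveolar tumors carry *NKX2-1* and surfactant genes and neuroendocrine tumors carry the chromogranins. *CDKN2A* encodes the cell cycle inhibitor p16 and, from an alternative first exon, the ARF protein. *ALDH1A1* oxidizes retinaldehyde to retinoic acid and is widely used as a marker of stem-like tumor cells. *FGGY* encodes a carbohydrate kinase, and its count can hold reads of the lentiviral transcript as well as of the endogenous gene.

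The total count per library was 16242082 to 18316617 in OV-L1-FGGY cells and 24434580 to 24828322 in control cells, so a count of 0 in the shallowest library allows a level of up to 0.172 CPM (the share of a library's TMM-scaled total, at 3 counts). Of 36072 genes with a count, 17849 passed edgeR's filter on low counts, and the 17251 outside the sex chromosomes are described. Libraries of a group had Pearson correlations of log2 CPM (over genes, which are not independent) of 0.988 or more, and libraries of different groups had 0.758 to 0.769. With edgeR's quasi-likelihood test at a Benjamini-Hochberg adjusted p under 0.01, 5562 genes (32.2%) were higher in OV-L1-FGGY cells and 6266 (36.3%) were lower. At least 4-fold, 1853 (10.7%) were higher and 3034 (17.6%) lower. These shares are the background against which each gene list is read, and the median log2 fold change of all genes was -0.11. Mitochondrial transcripts took 5.79 to 6.52% of the counts in OV-L1-FGGY cells and 4.21 to 4.51% in control cells, and replication-dependent histone genes 0.0360 to 0.0400% against 0.0141 to 0.0145%. The part of these shares in the results was not tested.

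*FGGY* (ENSG00000172456, GRCh38 chromosome 1, 59296638 to 59810647, plus strand) was examined first, since it checks the labels. It had 4782, 5206 and 6196 counts in the OV-L1-FGGY libraries and 91, 87 and 78 in the control libraries. The groups were far apart, at 287 ± 22.0 CPM and 3.41 ± 0.418 CPM (SD, n = 3 each), and the log2 fold change was 6.39 (SE 0.16, edgeR adjusted p = 1.9e-14). The same separation held in the other 6 libraries, which do not enter this comparison. *FGGY* had 7346, 6290 and 5080 counts after the 12-lipoxygenase inhibitor ML355 (10 μM) but only 82, 103 and 88 in the libraries labelled *L1-FGGY* with NVR (450 μM), which lay at the level of the control. These libraries go against the *L1-FGGY* part of their label, and in what follows the difference between the ML355 libraries and those labelled NVR is given beside some results as a second set, without a test.

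*CDKN2A* and *ALDH1A1* divided the groups completely. *CDKN2A* (ENSG00000147889, chromosome 9, 21967752 to 21995301, minus strand) had 4489, 5594 and 5078 counts in OV-L1-FGGY cells and 1, 0 and 0 in control cells. Its level was 269 ± 21.7 CPM (SD, n = 3) against a single read, a ratio of 20310 with a 95% counting interval of 3645 to 802265. *ALDH1A1* (ENSG00000165092, chromosome 9, 72900671 to 73080442, minus strand) went the other way, with no read in any OV-L1-FGGY library and 139426, 150477 and 155581 counts in the control libraries, or 5906 ± 54.9 CPM (SD, n = 3). It was at least 110847-fold lower in OV-L1-FGGY cells, where the floor is 3 counts over the group. The ML355 libraries again had no *ALDH1A1* read and 7439, 4836 and 7470 *CDKN2A* counts, and the libraries labelled NVR had 49457, 73574 and 37780 *ALDH1A1* counts and no *CDKN2A* read. Intervals and floors of this kind cover counting error only.

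**Figure D1:**
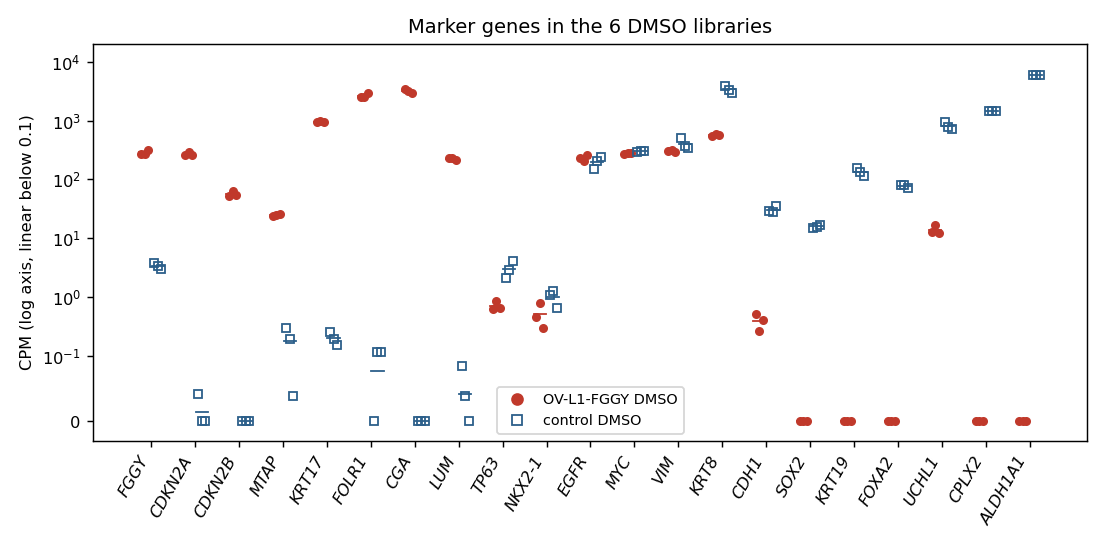
CPM (TMM-scaled, log axis that turns linear below 0.1) of 21 marker genes in each of the 6 DMSO libraries, with OV-L1-FGGY as filled circles, control as open squares and group means as bars. *FGGY*, *CDKN2A* and *ALDH1A1* have no overlap between the groups, while *EGFR*, *MYC* and *VIM* lie close together.

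The near absence of *CDKN2A* reads in control cells extended to its direct neighbors. *CDKN2B*, which encodes the related inhibitor p15, had 910, 1188 and 1078 counts in OV-L1-FGGY cells and none in control cells, at least 1418-fold higher. *MTAP*, an enzyme of methionine salvage, had 419, 465 and 517 counts against 7, 5 and 1, with a log2 fold change of 7.12 (SE 0.29, edgeR adjusted p = 2.2e-12). These 3 genes formed a run on chromosome 9 from 21802636 to 22009305 in which control cells had hardly a read. On either side both populations had reads. *KLHL9* had 427, 344 and 422 counts against 596, 717 and 783 and did not pass the test (log2 fold change -0.38, SE 0.15, edgeR adjusted p = 0.026). *DMRTA1* had 91, 111 and 82 counts against 39, 40 and 41. The interferon alpha genes between *MLLT3* and *MTAP* had at most 5 counts in any of the 6 DMSO libraries, but *IFNB1* had 17, 16 and 12 counts in OV-L1-FGGY cells and none in control cells, and *IFNE* had 2, 4 and 3 counts against 56, 50 and 50. Of the 11 genes of this neighborhood that were tested, 6 were higher in OV-L1-FGGY cells (54.5%, against 32.2% of all genes). Another 2 were lower (18.2%, against 36.3%).

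**Figure D2:**
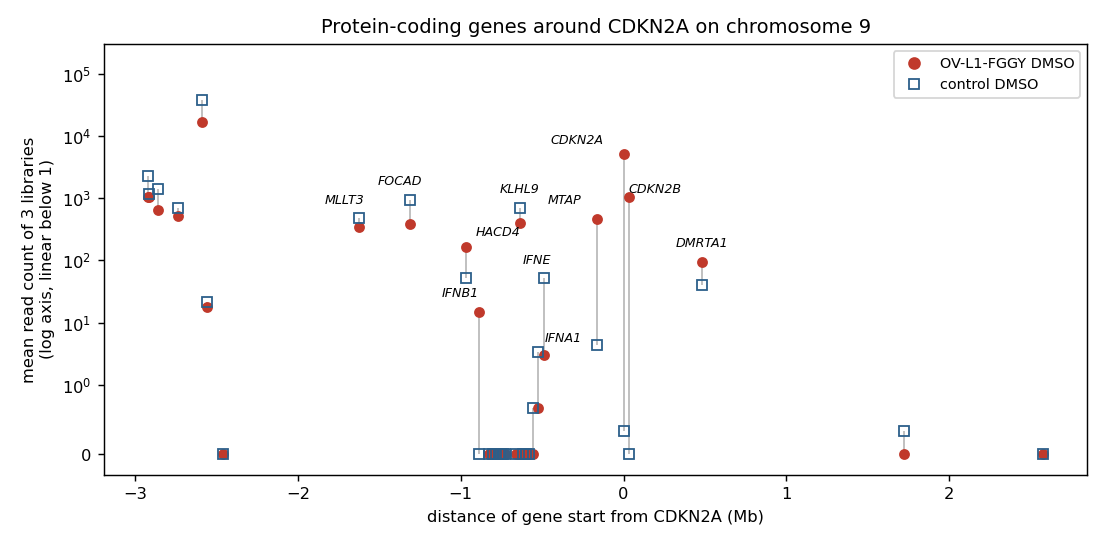
Mean count of 3 libraries (log axis, linear below 1) of each protein-coding gene within 3 Mb of *CDKN2A*, against the distance of the gene's start in Mb. *MTAP*, *CDKN2A* and *CDKN2B* are near 0 in control cells (open squares) and high in OV-L1-FGGY cells (filled circles), whereas *KLHL9* and *DMRTA1* on either side are counted in both.

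The markers usually used to define squamous cells were scarce in part, while other genes of the same list were abundant. *KRT5*, *KRT6A* and the desmosomal cadherin *DSG3* had at most 3 counts in any of the 6 libraries. *TP63* had 11, 16 and 13 counts in OV-L1-FGGY cells and 50, 73 and 108 in control cells (log2 fold change -2.09, SE 0.43, edgeR adjusted p = 3.2e-04), a low level in both. *SOX2* had no read in OV-L1-FGGY cells and 360, 404 and 446 counts in control cells, at least 301-fold lower. *KRT14* had 4, 10 and 8 counts against none. Of 24 squamous and basal genes tested, 12 were higher (50%, against 32.2% of all genes) and 5 lower (20.8%, against 36.3%). At least 4-fold, 6 were higher (25%, against 10.7%) and 4 lower (16.7%, against 17.6%), and the median log2 fold change was 0.54. *KRT17*, a keratin of basal and activated epithelium, had 16304, 18388 and 18447 counts against 6, 5 and 4 (log2 fold change 12.17, SE 0.28, edgeR adjusted p = 8.0e-15). *TRIM29* (5.48), *PERP* (3.18), a p63 target of desmosomes, and the transcription factor *KLF5* (2.83) also rose on the log2 scale. Of 16 cornification genes 3 were higher (18.75%, against 32.2% of all genes) and 6 lower (37.5%, against 36.3%). Among them *ECM1* had a log2 fold change of 5.07 and *EVPL* of -1.79. Another 27 of the 43 cornification genes listed did not pass the filter on low counts.

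Alveolar markers were scarce as well, while glandular genes differed strongly in both directions. *NKX2-1* had 8, 15 and 6 counts against 26, 32 and 17 and did not pass the test (edgeR adjusted p = 0.053), and *SFTPB* and *SFTPC* stayed at or under 3 counts. *FOLR1*, the folate receptor of glandular epithelium, had 43794, 48364 and 57243 counts in OV-L1-FGGY cells and 0, 3 and 3 in control cells, a ratio of 33357 (95% counting interval 15325 to 90897). The trefoil peptide *TFF2* had 647, 765 and 615 counts against none, at least 905-fold higher, and the mucin *MUC13* rose by 4.67. In control cells *FOXA2*, a pioneer factor of endoderm, had 1904, 2061 and 1883 counts against none, at least 1455-fold lower in OV-L1-FGGY cells. The aspartic protease *NAPSA* had 3, 0 and 0 counts against 100, 81 and 105, lower by a ratio of 71.2 (95% counting interval 24.1 to 347). Over the list, 8 of 23 genes were higher (34.8%, against 32.2% of all genes) and 9 lower (39.1%, against 36.3%). Airway secretory and ciliated genes were mostly lower, with 12 of 18 lower in OV-L1-FGGY cells (66.7%, against 36.3% of all genes). At least 4-fold, 11 were lower (61.1%, against 17.6%). Another 4 genes were higher at any size (22.2%, against 32.2%), and the median was -2.25. The gel-forming mucin *MUC5AC* had 24, 34 and 36 counts against 1398, 1532 and 1500 (log2 fold change -5.13, SE 0.28, edgeR adjusted p = 9.2e-11), *LCN2* fell by 5.80, and *AGR2*, which folds mucins, had no read against 1250, 1159 and 1099, at least 873-fold lower. The membrane mucin *MUC16* was the reverse, with 173, 148 and 244 counts against 2, 1 and 0, a ratio of 252 (95% counting interval 85.9 to 1227), and the protease inhibitor *SLPI* rose by 4.53.

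Neuroendocrine and neuronal genes were mostly lower, with 21 of 28 lower in OV-L1-FGGY cells (75%, against 36.3% of all genes). At least 4-fold, 15 were lower (53.6%, against 17.6%). Another 4 genes were higher at any size (14.3%, against 32.2%). The median log2 fold change was -2.49, and -2.33 in the ML355 libraries against those labelled NVR. *CPLX2*, a regulator of synaptic vesicle fusion, had 33980, 37548 and 38160 counts in control cells and none in OV-L1-FGGY cells, at least 27293-fold lower. The neuronal ubiquitin hydrolase *UCHL1* had 221, 322 and 246 counts against 22104, 20111 and 18693 (log2 fold change -5.86, SE 0.19, edgeR adjusted p = 1.9e-13). The light neurofilament *NEFL* had 2, 3 and 2 counts against 220, 248 and 247, lower by a ratio of 76.2 (95% counting interval 36.8 to 190.3). Neuron-specific enolase, *ENO2*, fell by 2.63. *CHGA* had 2, 4 and 0 counts against 63, 34 and 29. Among the higher genes were the prohormone convertase *PCSK1* (4.60), the intermediate filament *INA* (2.03) and *POU2F3*, a factor of tuft cells, which had 36, 26 and 53 counts against 1, 0 and 0.

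Epithelial adhesion and mesenchymal genes did not divide the populations into an epithelial and a mesenchymal side. *CDH1*, E-cadherin, had 9, 5 and 8 counts in OV-L1-FGGY cells and 697, 721 and 905 in control cells (log2 fold change -6.28, SE 0.32, edgeR adjusted p = 3.3e-11). *EPCAM*, another epithelial surface protein, had 166, 185 and 146 counts against 33, 48 and 38 and was higher (2.49, SE 0.21, edgeR adjusted p = 1.4e-08). Each of these surface proteins was thus lower in the population in which the other was higher. *KRT19* had no read in OV-L1-FGGY cells and 3684, 3377 and 2976 counts in control cells, at least 2497-fold lower, and the simple keratins *KRT8* (-2.58) and *KRT18* (-1.81) fell. *MAL2* (8.08), the splicing regulator *ESRP2* (7.36) and the tight junction protein *CLDN7* (5.02) rose. In all, 11 of 29 epithelial genes were higher (37.9%, against 32.2% of all genes) and 15 lower (51.7%, against 36.3%). The median was -0.82 here and 0.34 in the second set.

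Of 39 mesenchymal genes, 16 were higher and 16 lower (41.0% each, against 32.2% and 36.3% of all genes), with a median of 0.03. *VIM*, the filament protein that usually marks mesenchymal cells, had a log2 fold change of -0.41 that did not pass the test (edgeR adjusted p = 0.056), and *CDH2*, N-cadherin, fell by 2.05. The repressors of E-cadherin *ZEB1* (1.60), *ZEB2* (2.23) and *SNAI2* (3.66) rose, whereas *TWIST1* fell by 3.64. Matrix genes split as well. The proteoglycans *LUM* and *DCN* were read almost exclusively in OV-L1-FGGY cells, with 4000, 4327 and 4224 counts against 2, 1 and 0 for *LUM* and 966, 1266 and 1204 against none for *DCN*, at least 1534-fold higher. *SPARC* had 0, 4 and 0 counts against 4373, 4684 and 5013, and the collagen chain *COL5A2* fell by 7.23.

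Markers of other cell types were checked over whole lists. Of 10 fibroblast genes tested 8 were higher (80%, against 32.2% of all genes) and 2 lower (20%, against 36.3%). The summed level of that list was 1019 to 1070 CPM in OV-L1-FGGY libraries and 91.5 to 114 in control libraries. *FBLN1* (log2 fold change 3.26) and *LUM* belonged to the higher members, while *COL1A2* had at most 1 count and *THY1* had none in OV-L1-FGGY cells. The endothelial genes *PECAM1*, *CDH5* and *ESAM* were higher and *EGFL7* lower (a call lost in 5 of the 6 fits without a library), with summed levels of 93.5 to 107 and 90.2 to 138 CPM. Hematopoietic genes summed to 3.43 to 4.59 CPM in OV-L1-FGGY libraries and 9.17 to 10.6 CPM in control libraries over the list. Of the 25 listed, 17 did not pass the filter on low counts. Of the 8 tested, 2 were higher (25%, against 32.2% of all genes) and 5 lower (62.5%, against 36.3%). At least 4-fold, 2 were higher (25%, against 10.7%) and 4 lower (50%, against 17.6%). *ITGAM* had no read in OV-L1-FGGY cells and was at least 63.7-fold lower, and *CD14* fell by 1.92 on the log2 scale. *PTPRC*, the common leukocyte antigen, had 19, 33 and 13 counts against none, and *CD3E* and *HBB* had too few reads to be tested. Whether any of this signal came from other cells was not tested.

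Some placental and germline genes, a class usually silent in lung, were among the largest differences. Most listed genes of these 2 classes had few reads. Of 44 in the count table for each class, 25 trophoblast and 28 germline genes did not pass the filter. *CGA*, the common subunit of the glycoprotein hormones, had 60788, 59661 and 57410 counts in OV-L1-FGGY cells (3172 ± 298 CPM, SD, n = 3) and no read in control cells, at least 79422-fold higher. The placental alkaline phosphatase *ALPP* had 3254, 3616 and 4155 counts against 0, 0 and 1, although its near-identical paralogs make the assignment of reads uncertain. The partner subunits of *CGA* in the *CGB* family had at most 10 counts in any library. In control cells the relaxin-like hormone *INSL4* had 388, 314 and 341 counts against 3, 0 and 0, lower in OV-L1-FGGY cells by a ratio of 260 (95% counting interval 88.6 to 1260), and the imprinted gene *PEG10* was higher there too (log2 fold change -4.21). *GATA3*, a transcription factor of trophoblast, had 421, 497 and 460 counts against none, at least 343-fold lower, while *GATA2* rose by 2.23. Of 19 trophoblast genes 10 were higher (52.6%, against 32.2% of all genes) and 8 lower (42.1%, against 36.3%). Their median was 0.89 here and -0.32 in the second set. Of 16 germline genes 9 were higher (56.25%, against 32.2% of all genes) and 4 lower (25%, against 36.3%). The serine protease *PRSS21* had 3458, 3760 and 3660 counts against 1, 0 and 0, and the helicase *TDRD9* had 738, 698 and 817 against none, at least 1006-fold higher. The tumor antigen *PRAME* fell by 1.72.

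Transcription factors that set position and organ identity differed gene by gene. Several posterior HOX genes of the A and C clusters rose, with *HOXA11* at 656, 607 and 615 counts against 12, 12 and 7 (log2 fold change 6.33, SE 0.22, edgeR adjusted p = 4.2e-13), *HOXC10* at 5.92, *HOXC11* at 5.52 and *HOXA9* at 4.63. Several anterior genes and members of the D cluster fell, among them *HOXA2* (-3.32), *HOXA3* (-3.22) and *HOXD10* (-2.86). Over the family, 12 of 30 were higher (40%, against 32.2% of all genes) and 13 lower (43.3%, against 36.3%). Among 100 other developmental factors 33 were higher and 44 lower, and at least 4-fold 16 were higher and 38 lower. Of all genes 32.2% were higher and 36.3% lower, and at least 4-fold 10.7% and 17.6%. *FOXF1*, a factor of lung mesenchyme, had 861, 917 and 1066 counts in OV-L1-FGGY cells and 0, 1 and 0 in control cells, a ratio of 3810 (95% counting interval 683 to 150536), and *ISL1* had 146, 183 and 124 against none. *SIX2*, a factor of kidney progenitors, had 973, 1071 and 1129 counts against 2, 2 and 0, a ratio of 1063 (95% counting interval 415 to 3903). The cardiac factor *NKX2-5* had 883, 760 and 695 counts in control cells and none in OV-L1-FGGY cells, at least 582-fold lower, and *TBX18* had 576, 762 and 952 against none, at least 570-fold lower. *FOXA1* (0.16) and *RUNX2* (-0.01) did not pass the test.

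Proliferation genes differed by smaller amounts. Of 42 S phase genes 23 were higher (54.8%, against 32.2% of all genes) and 5 lower (11.9%, against 36.3%). Their median was 0.59 (2.17 in the second set). Of 54 genes of the G2 and M phases 20 were higher and 21 lower (37.0% and 38.9%, against 32.2% and 36.3% of all genes). Their median was -0.07 (1.45 in the second set). *MKI67*, the proliferation antigen, had 2903, 2399 and 3698 counts against 5144, 5815 and 6788 and fell by 0.56 (SE 0.13, edgeR adjusted p = 0.0012), while the kinase *BUB1* rose by 2.19 and the histone chaperone *HJURP* fell by 2.99. Of 32 regulators of G1, 17 were higher (53.1%, against 32.2% of all genes) and 6 lower (18.8%, against 36.3%). Besides *CDKN2A* and *CDKN2B*, the inhibitor *CDKN1C* rose by 6.36. So did the ubiquitin ligase subunit *SKP2*, which degrades inhibitors of this class (3.79), and the kinases *CDK6* (2.33) and *CDK2* (2.06). *RB1*, the target of these kinases, had 1421, 1396 and 1472 counts against 563, 818 and 934 and rose by 1.32 (SE 0.19, edgeR adjusted p = 7.1e-06). *CCND1* rose by 0.93 and *CCND3* fell by 1.52, whereas *MYC* (-0.11) and *CDKN1A* (-0.19) did not pass the test.

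Of 48 receptors and drivers of lung cancer 17 were higher (35.4%, against 32.2% of all genes) and 21 lower (43.8%, against 36.3%). The receptor tyrosine kinase *NTRK3* had 3176, 3458 and 3798 counts in control cells and none in OV-L1-FGGY cells, at least 2596-fold lower, and *EPHB2* fell by 5.27. *STK11*, which encodes the kinase LKB1, had 68, 77 and 88 counts against 4161, 4000 and 3408 (log2 fold change -5.22, SE 0.23, edgeR adjusted p = 6.7e-12). *TERT* fell by 4.09 and *FGFR1*, which is often amplified in squamous lung cancer, fell by 1.55. *ERBB3* (3.85) and *MET* (1.39) rose, and *ERBB4* had 68, 66 and 85 counts against none. *EGFR* (0.20) did not pass the test.

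Interferon-stimulated genes were high in OV-L1-FGGY cells. Type I interferon acts through a transcription factor complex that holds STAT2 and IRF9 and binds the interferon-stimulated response element in promoters of antiviral genes. Of 43 genes of this response 34 were higher (79.1%, against 32.2% of all genes) and 5 lower, and 23 were higher at least 4-fold, with a median log2 fold change of 2.34 (2.06 in the second set). The ubiquitin-like modifier *ISG15* had 23677, 27211 and 23469 counts in OV-L1-FGGY cells and 287, 226 and 210 in control cells (log2 fold change 7.10, SE 0.32, edgeR adjusted p = 9.6e-12). The antiviral enzyme *RSAD2* had 1405, 1409 and 1429 counts against 3, 1 and 1. *OASL* (8.87), *OAS2* (8.16), the tethering factor *BST2* (7.85), *HERC5* (7.05) and *IFIT2* (6.90) rose with them. The response was not uniform. *MX1*, one of the classical interferon targets, had 3, 16 and 17 counts against 88, 89 and 81 and fell by 2.42, and *IRF1* (-1.58) and *IFI35* (-1.45) fell. The signal transducer *STAT2* rose by 1.17 and *IRF9*, with 4, 11 and 7 counts against 24, 34 and 24, fell by 1.47.

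Upstream sequences of 34 of the interferon genes were available from RefSeq (GRCh38.p14). The element core GAAANNGAA, searched on both strands in the 250 bases before a start, occurred in 22 of them (64.7%), and in 20 of the 28 that were higher. It occurred in 8.38% of all 26246 genes with a promoter sequence. The matching stretch is shown for *RSAD2* (chr2:6865635-6865884, plus strand) and *BST2* (chr19:17405631-17405880, minus strand), the members with the largest rise that hold it, 5′ to 3′ with the match in capitals.
RSAD2: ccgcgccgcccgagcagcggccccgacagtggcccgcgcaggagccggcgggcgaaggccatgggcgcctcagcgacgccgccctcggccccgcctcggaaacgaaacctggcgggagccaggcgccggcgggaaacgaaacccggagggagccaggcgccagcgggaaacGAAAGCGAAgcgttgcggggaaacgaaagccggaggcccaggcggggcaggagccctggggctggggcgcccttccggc
BST2: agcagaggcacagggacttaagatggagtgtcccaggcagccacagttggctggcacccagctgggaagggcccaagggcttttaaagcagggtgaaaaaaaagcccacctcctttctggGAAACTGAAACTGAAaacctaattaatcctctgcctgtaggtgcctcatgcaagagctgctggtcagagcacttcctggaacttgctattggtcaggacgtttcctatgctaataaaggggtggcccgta
The match in *RSAD2* begins 79 bases before the start, and *BST2* holds 2 overlapping matches from 130 bases before it. A match is a description of letters and not evidence of binding in these cells.

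Antigen presentation genes were also mostly higher, with 17 of 23 higher (73.9%, against 32.2% of all genes) and 2 lower (8.7%, against 36.3%). Their median was 1.21 (1.09 in the second set). *HLA-B* had 12112, 14493 and 12775 counts against 1771, 1471 and 1301 (log2 fold change 3.53, SE 0.19, edgeR adjusted p = 5.8e-11). *B2M*, the invariant chain of class I (2.44), and the transactivator *NLRC5* (2.33) rose, and the immunoproteasome subunit *PSMB10* fell by 2.45. Reads of HLA genes are uncertain, since alleles that differ from the reference can be lost and paralogs share sequence. Chemokines and cytokines ran against this direction. Of 45 genes 29 were lower (64.4%, against 36.3% of all genes) and 8 higher (17.8%, against 32.2%). At least 4-fold, 23 of the 45 were lower (51.1%, against 17.6%). Their median was -2.01, or -1.85 with genes without a read at their bound, and -1.20 in the second set. *CXCL5*, which recruits neutrophils, had 12297, 14216 and 15393 counts in control cells and none in OV-L1-FGGY cells, at least 10427-fold lower. *CXCL8* (-2.74), *CXCL1* (-3.71), *CCL2* (-7.50) and *CCL20* (-6.64) fell. The NF-kB responsive gene *TNFAIP2* had 2608, 2878 and 3155 counts against 46714, 56430 and 55284 (log2 fold change -3.77, SE 0.18, edgeR adjusted p = 2.2e-11). The chemokines that rose were the interferon-inducible *CXCL10*, with 398, 563 and 456 counts against 16, 7 and 6, *CXCL11*, with 342, 333 and 296 counts against 2, 1 and 1, and *CCL5* (2.90), and *IL6* rose by 1.56.

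**Figure D3:**
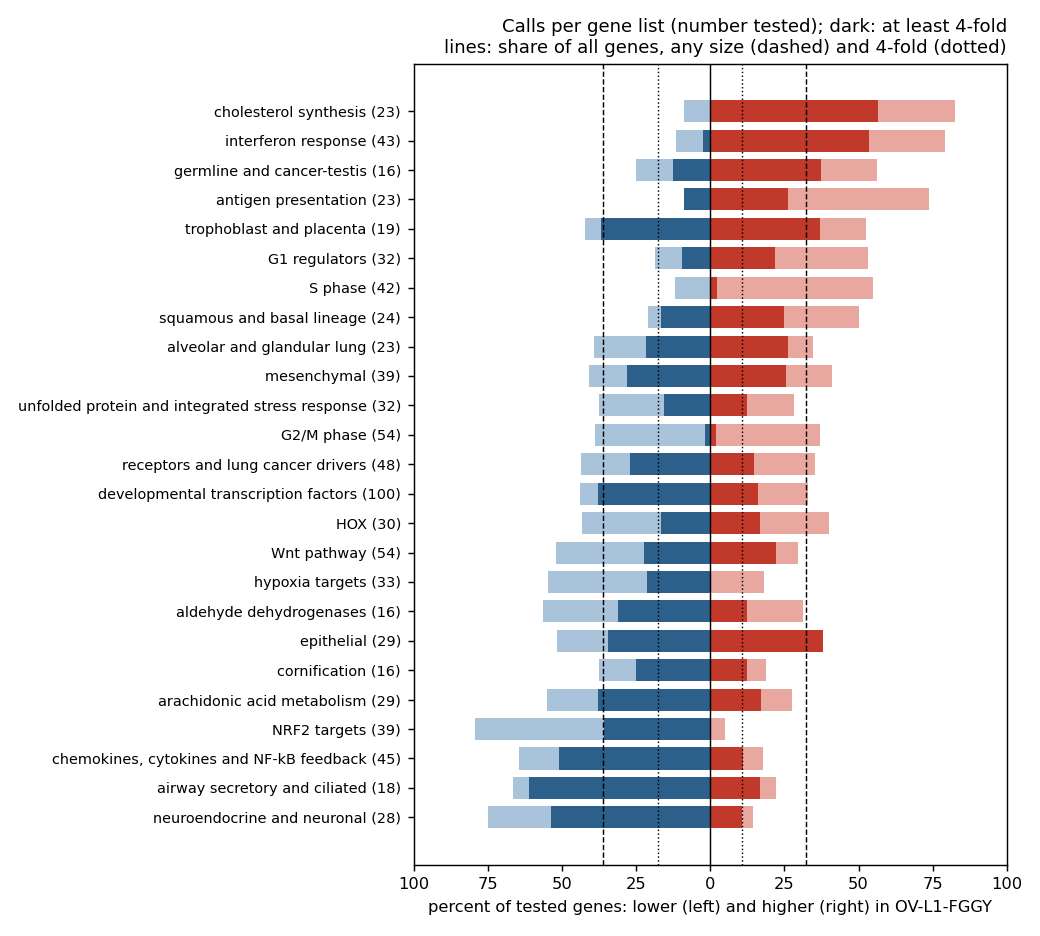
Percent of a list's tested genes lower (left) and higher (right) in OV-L1-FGGY cells at an edgeR adjusted p under 0.01. Only lists described in the text with at least 16 tested genes are shown, ordered by median log2 fold change. Calls of at least 4-fold are dark. Lines mark the share of all genes called (dashed, 36.3% lower and 32.2% higher) and called at 4-fold (dotted, 17.6% and 10.7%). Of the lists plotted, cholesterol synthesis and interferon response stand at the top, and neuroendocrine and airway genes at the bottom.

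Targets of NRF2, the transcription factor that is released from KEAP1 under oxidative stress and binds the antioxidant response element, were low in OV-L1-FGGY cells. The list of 39 tested genes also holds the regulators *NFE2L2* and *KEAP1*. Of the 39, 31 were lower (79.5%, against 36.3% of all genes), 14 of them at least 4-fold, and 2 were higher. The median was -1.66 (-1.87 in the second set). *AKR1B10*, an aldo-keto reductase, had 3, 2 and 4 counts in OV-L1-FGGY cells and 42264, 42251 and 41203 in control cells (log2 fold change -13.30, SE 0.30, edgeR adjusted p = 6.1e-15). *ALDH3A1* had 82, 117 and 113 counts against 58557, 56098 and 52817 (-8.65, SE 0.22, edgeR adjusted p = 1.6e-14). The gastrointestinal glutathione peroxidase *GPX2* had 0, 0 and 1 counts against 3182, 2765 and 2534, a ratio of 6331 (95% counting interval 1136 to 250083). The canonical target *NQO1* remained expressed, with 7247, 7822 and 8037 counts against 36720, 34224 and 33378, and fell by 1.76 (SE 0.13, edgeR adjusted p = 5.5e-09). The 2 higher genes were *NFE2L2*, which encodes NRF2 itself (1.51), and the glutathione synthesis subunit *GCLM* (0.49), and *KEAP1* fell by 1.57. *FTH1* (-0.14), *TXN* (-0.26), *ME1* (0.27) and *SLC7A11* (0.34) did not pass the test. *AKR1C1* and *AKR1C2* are close paralogs and their counts may be shared in part.

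The core of the antioxidant response element, TGACNNNGC, was searched for within 250 bases before a start. It was found in 10 of the 28 genes of the NRF2 list with a RefSeq promoter (35.7%). It occurred in 8 of the 23 that were lower, and in 13.2% of all 26246 genes. It is shown for *GPX2* (chr14:64942746-64942995, minus strand) and *CYP4F11* (chr19:15934868-15935117, minus strand), the members with the largest fall that hold it, read 5′ to 3′ with the match in capitals, which lies as the reverse complement of the motif.
GPX2: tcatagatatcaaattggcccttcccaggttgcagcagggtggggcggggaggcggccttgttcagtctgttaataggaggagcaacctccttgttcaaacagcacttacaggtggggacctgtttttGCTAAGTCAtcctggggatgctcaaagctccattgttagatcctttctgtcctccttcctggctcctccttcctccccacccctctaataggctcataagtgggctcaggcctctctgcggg
CYP4F11: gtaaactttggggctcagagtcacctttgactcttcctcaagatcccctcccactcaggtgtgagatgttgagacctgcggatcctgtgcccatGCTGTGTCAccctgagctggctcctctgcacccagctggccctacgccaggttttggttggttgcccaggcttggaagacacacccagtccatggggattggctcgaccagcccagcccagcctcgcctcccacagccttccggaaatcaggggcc
The matches begin 122 bases (*GPX2*) and 156 bases (*CYP4F11*) before the start. *CYP4F11*, a fatty acid hydroxylase, had 0, 0 and 4 counts in OV-L1-FGGY cells and 1032, 1118 and 1226 in control cells.

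*ALDH1A1* and *ALDH3A1* were the extremes of a broader difference among aldehyde dehydrogenases. Of 16 tested, 9 were lower (56.25%, against 36.3% of all genes) and 5 higher (31.25%, against 32.2%), with a median of -0.80. *ALDH3B1*, which clears lipid aldehydes, had 1051, 1429 and 1258 counts against 17430, 18327 and 17749 and fell by 3.42 (SE 0.13, edgeR adjusted p = 1.5e-12). *ALDH1A3*, which shares the retinaldehyde reaction with *ALDH1A1*, fell by 1.05, but the third enzyme of that reaction, *ALDH1A2*, had 84, 61 and 85 counts against 3, 5 and 2 and rose by 4.89 (SE 0.50, edgeR adjusted p = 1.9e-07). The mitochondrial folate enzyme *ALDH1L2* rose by 2.42. The summed level of the family was 625 to 640 CPM in OV-L1-FGGY libraries and 9453 to 9859 in control libraries, most of it from these 2 genes. Without *ALDH1A1* and *ALDH3A1* the other 14 summed to 619 to 634 CPM and 1459 to 1531 CPM.

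Cholesterol synthesis was higher almost throughout in OV-L1-FGGY cells. The pathway is controlled by SREBP2, which activates its enzymes when sterols are scarce. Of 23 genes 19 were higher (82.6%, against 32.2% of all genes), 13 at least 4-fold, and 2 lower, with a median of 2.53 (2.87 in the second set). *HMGCS1*, the enzyme that makes HMG-CoA, had 10478, 10632 and 10963 counts in OV-L1-FGGY cells and 496, 634 and 802 in control cells (log2 fold change 4.49, SE 0.21, edgeR adjusted p = 1.1e-11). *SC5D* (3.58), a desaturase of the last steps, and *SREBF2* (1.30), which encodes SREBP2, rose, *PMVK* (-1.76) and *TM7SF2* (-1.18) fell, and *CYP51A1* (0.30) and *MVD* (-0.16) did not pass the test. The sterol regulatory element core TCACNCCAC was found on either strand in the 250 bases before a start in 1 of the 16 genes with a promoter sequence, *SREBF2*, and in 1.07% of all promoters.

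**Figure D4:**
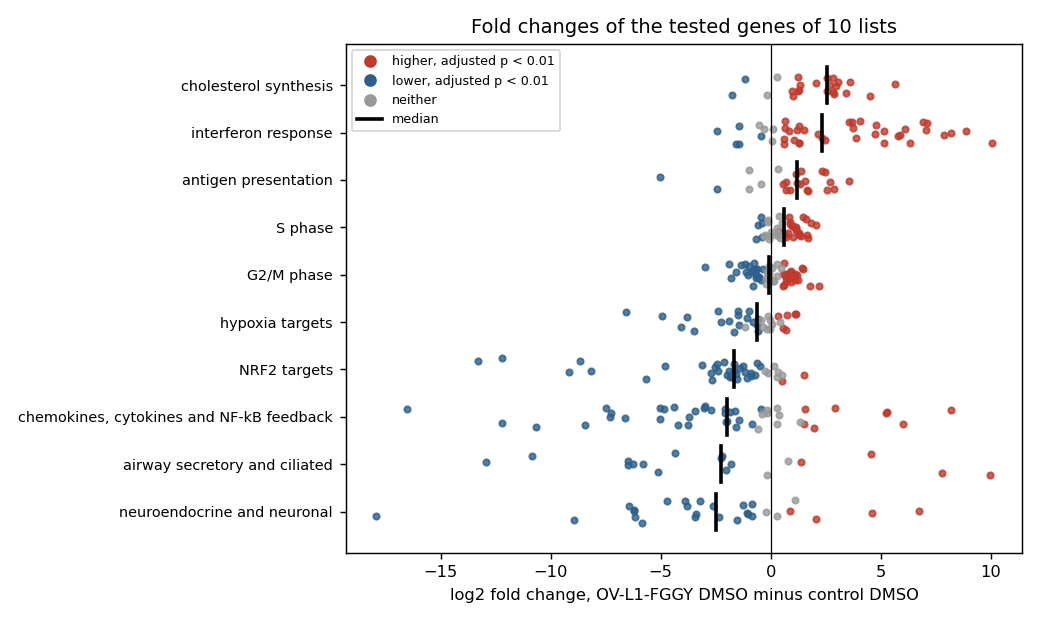
log2 fold change (OV-L1-FGGY DMSO minus control DMSO, edgeR) of each tested gene of 10 lists, colored by the call at an adjusted p under 0.01, with the list's median as a black bar (positions of genes without a read in a group depend on the prior count). The cholesterol (2.53) and interferon (2.34) medians lie to the right, the S and G2/M phase genes stay close to 0, and the NRF2 (-1.66), chemokine (-2.01) and neuroendocrine (-2.49) medians lie to the left.

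Of 33 hypoxia targets, 18 were lower (54.5%, against 36.3% of all genes) and 6 higher (18.2%, against 32.2%), and 0 were higher at 4-fold. The glycolytic regulator *PFKFB3* had 454, 541 and 566 counts against 17604, 23185 and 24745 (log2 fold change -4.97, SE 0.22, edgeR adjusted p = 7.3e-12). *EGLN3*, the oxygen sensor that HIF induces, fell by 6.59, *ANGPTL4* (-4.09) and the carbonic anhydrase *CA12* (-3.82) fell, while *LDHA* (-0.17) and *CA9* (-1.19) did not pass the test. Of 32 genes of the unfolded protein and integrated stress responses 9 were higher and 12 lower. These shares, 28.1% and 37.5%, lay near the 32.2% and 36.3% of all genes. The chaperone *HSPA5* rose, with 47066, 47920 and 46443 counts against 13501, 14299 and 14140 (2.18, SE 0.15, edgeR adjusted p = 1.3e-09), and so did its partner *DNAJC3* (2.77). *CHAC1* (-2.80), which degrades glutathione, and *ASNS* (-2.76), which makes asparagine, fell. In the second set of libraries *ASNS* was 4.78 higher on the log2 scale after ML355 than in those labelled NVR, the opposite direction.

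The arachidonic acid pathway, which releases the fatty acid from membranes and oxidizes it by cyclooxygenases, lipoxygenases or cytochromes, changed in both directions. Of 29 genes 16 were lower (55.2%, against 36.3% of all genes) and 8 higher (27.6%, against 32.2%), with a median of -1.03. *PLA2G4A*, the phospholipase that releases arachidonic acid, had 6276, 6030 and 6569 counts in OV-L1-FGGY cells and 587, 701 and 725 in control cells (log2 fold change 3.66, SE 0.15, edgeR adjusted p = 4.3e-12). The cyclooxygenases rose too, with *PTGS1* at 822, 950 and 907 counts against 3, 6 and 7 (7.77, SE 0.28, edgeR adjusted p = 7.2e-13) and *PTGS2* at 1.43, and *PTGES*, the prostaglandin E synthase, rose by 2.28. The enzyme that breaks prostaglandins down, *HPGD*, fell by 6.01 and thromboxane synthase, *TBXAS1*, had 0, 1 and 4 counts against 201, 193 and 185. The lipoxygenases were low in reads. *ALOX12*, which encodes 12-lipoxygenase, had 17, 11 and 14 counts in OV-L1-FGGY cells and 139, 165 and 155 in control cells, a log2 fold change of -3.01 (SE 0.26, edgeR adjusted p = 2.7e-08). *ALOX15* had at most 3 counts in any library, too few to test. In the second set *PTGS2* (-0.29) and *PTGES* (-0.81) were lower after ML355 than in the libraries labelled NVR.

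Wnt ligands signal through Frizzled and ROR receptors, with or without stabilizing beta-catenin. Of 54 genes of the pathway 16 were higher and 28 lower (29.6% and 51.9%, against 32.2% and 36.3% of all genes). In each direction 12 were at least 4-fold. *WNT5A*, a ligand of the branch that does not use beta-catenin, had 4219, 4427 and 4624 counts against 65, 97 and 85 (log2 fold change 6.17, SE 0.18, edgeR adjusted p = 7.1e-14). Its receptor *ROR2* rose by 5.22, and the receptor *FZD10* had 1387, 1624 and 1520 counts against 0, 1 and 0, a ratio of 6070 (95% counting interval 1089 to 239801). *ROR1* fell by 3.48, and the antagonist *SFRP1* had no read against 863, 1334 and 1258, at least 860-fold lower. Among targets and effectors of beta-catenin, *AXIN2* had 15, 11 and 23 counts against 228, 261 and 254 and fell by 3.49, and the related factors *TCF7* and *LEF1* went in opposite directions. *TCF7* had 1, 2 and 3 counts against 285, 332 and 307, lower by a ratio of 115 (95% counting interval 52.6 to 314). *LEF1* had 149, 124 and 145 counts against 1, 2 and 1, higher by a ratio of 140.0 (95% counting interval 54.3 to 516). *CTNNB1*, beta-catenin itself, rose by 0.73 (SE 0.15, edgeR adjusted p = 4.4e-04).

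Many differences were complete. With at least 100 counts in every library of a group and at most 3 in every library of the other, 117 genes were read only in OV-L1-FGGY cells and 241 only in control cells, 95 and 220 of them protein-coding, and both sets were spread over all 22 autosomes. In the other 6 libraries, 115 of the 117 and 240 of the 241 lay on the same side without overlap, ML355 taking the place of OV-L1-FGGY and the libraries labelled NVR that of the control. The same was true of 1536 (82.9%) of all genes at least 4-fold higher and of 2797 (92.2%) of those lower. Further genes read only in OV-L1-FGGY cells were *WFDC1* (at least 7132-fold higher), *NEGR1* (2628), *MT1E* (1886), *SSTR1* (1885) and *GSTM1* (1192), and those read only in control cells included *SPP1* (at least 4069-fold lower), *IGFBP2* (1557), *SMO* (1395), *GABRA5* (1347) and *GALNT14* (1036). *GSTM1*, with 882, 898 and 890 counts against none, belongs to a list drawn up as genes absent from some human genomes. Of its 9 tested genes 5 were higher (55.6%, against 32.2% of all genes), 1 lower (11.1%, against 36.3%) and 3 neither.

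Some genes that differed were neighbors. Runs of at least 3 consecutive tested protein-coding genes that were all at least 4-fold in a single direction numbered 72 higher (262 genes, 19.4% of the 1350 protein-coding genes at least 4-fold higher) and 126 lower (461 genes, 21.4% of 2153). The number of runs that would arise among unordered genes was not tested. The longest run held 9 genes in each direction. The longest lower run lay on chromosome 19 from 35745600 to 35879792, with the genes from *PSENEN* to *APLP1*, and the longest higher run on chromosome 5 from 35852695 to 37371106, from *IL7R* through *SKP2* to *NUP155*. The 6 chemokine genes from *CXCL8* to *CXCL2* on chromosome 4 formed a lower run, and *KRT9*, *KRT14*, *KRT16* and *KRT17* on chromosome 17 a higher one. Whole chromosomes differed as well. On chromosome 19, 28.1% of 1034 tested protein-coding genes were at least 4-fold lower and the median log2 fold change was -1.01, and on chromosome 17 these values were 23.1% of 865 genes and -0.95. The next lowest medians were those of chromosome 22 (-0.59) and chromosome 16 (-0.50). The highest medians were those of chromosome 13 (0.78), chromosome 18 (0.64) and chromosome 1 (0.61). DNA copy number was not measured in these libraries. Its part in these runs and chromosome medians, and that of any other factor, was not tested.

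**Figure D5:**
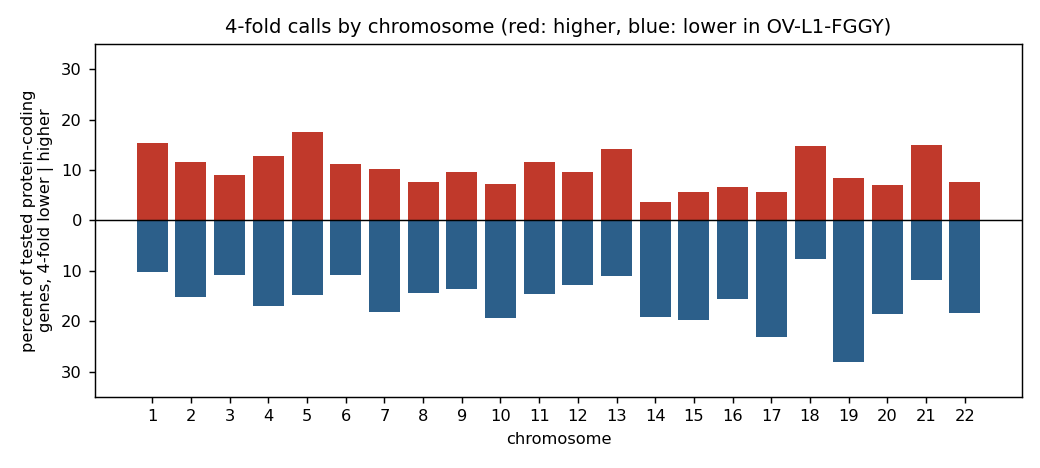
Percent of tested protein-coding genes on each autosome that were at least 4-fold higher (up, red) or lower (down, blue) in OV-L1-FGGY cells at an edgeR adjusted p under 0.01. Chromosomes 19 and 17 have the tallest lower bars, at 28.1% and 23.1%.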

How the data were processed

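Total RNA of cells labelled H520 was sequenced, and the 3 OV-L1-FGGY and 3 control libraries kept in DMSO were compared. Per the submitters' notes STAR 2.5.3a, HTSeq 0.11.2 and the hg38 build were used, and the authors deposited whole-number counts without normalization. Which annotation release and strand setting were used, and how multiply mapped reads were handled, is not given in the sources used here, so antisense, overlapping and paralogous genes are uncertain. The labels name a TruSeq kit and the methods an NEB kit. Symbols and positions were taken from GENCODE 44 for 57532 of 58302 identifiers, and 0 sample columns were left unmapped.

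The deposited counts of all 12 libraries were fitted with edgeR 4.0.16 (R 4.3.3; filterByExpr, TMM, robust quasi-likelihood fit of 4 group means), and p was adjusted by Benjamini-Hochberg over 17849 genes and called under 0.01, the threshold of the study. The common biological coefficient of variation was 0.143. Genes of chromosomes X and Y entered the fit and are left out of every count. Log2 fold changes are OV-L1-FGGY minus control, and standard errors were derived from the F statistic. Alternatives were DESeq2 1.42.0, limma 3.58.1 voom (the study's test), other scalings and filters, a fit of only the DMSO libraries, leaving out libraries in turn, the replicate block, glmTreat and a threshold of 0.05. On simulated counts for 17843 genes of this comparison, edgeR recovered 74% of 100 genes changed by a log2 of 1 and 100% of those changed by 2, with 1 false call. All other genes were set equal between the 2 groups there, whereas most genes were called in the data. The simulation therefore cannot give the rate of false calls or of recovery in this comparison. Libraries with equal replicate numbers did not deviate together, with correlations across genes of -0.04 to 0.05, so no block was used.

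Some genes of these lists are not reported here. The 6 libraries were taken by their labels. This comparison, the gene lists and their members, and the named genes were chosen with earlier results of these data known. No list is independent evidence. Named genes were *FGGY*, *CDKN2A*, *ALDH1A1*, a fixed set of lineage and cell cycle genes, the 12 protein-coding genes that rose most and the 12 that fell most at a mean of at least 10 CPM without overlap of the groups, and up to 4 per list and direction at a mean of at least 1 CPM. Other genes named were chosen after their values were seen. Tables used pandas 2.3.3 and numpy 2.4.6 under Python 3.11.15, and plots matplotlib 3.10.9.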

Additional observations from a re-analysis of the deposited data

How the results depend on the processing

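The counts of higher and lower genes stayed within 1.5 times of the reported ones in every alternative, at 5149 to 6231 higher and 5785 to 7171 lower. With voom, the study's test, 5617 genes were higher and 6283 lower, and with DESeq2 5532 and 6607. Upper quartile scaling moved the median of all genes by -0.11 and the share of calls that were higher from 47.0% to 43.5%. With the replicate block 5440 genes were higher in the fit of 12 libraries and 5626 in that of the 6 DMSO libraries, and apart from the counts below and *GBP2* it moved no list count by over 1.5 times and ended no call among the 241 genes tracked, though *VIM* passed in the blocked fit of 6 libraries. No tracked gene reversed in any alternative. *CDC45*, *GCLM*, *MCM7*, *TGM1* and *EGFL7* lost their call in some fits. The list counts that moved were all of 5 genes or fewer. Lower S phase genes (5) numbered 3 with library size alone and 2 (without control replicate 1) to 5 with a library left out, and lower interferon genes (5) numbered 3 with library size alone, 3 with the replicate block in 12 libraries and 3 to 5 with a library left out, since *GBP2* and others lie near the threshold. Lower antigen presentation genes (2) numbered 1 with a mean of at least 10 counts, 1 in the fit of the 6 DMSO libraries and 1 to 3 with a library left out. Higher genes of the NRF2 list (2) numbered 1 with upper quartile scaling, 4 at an adjusted p under 0.05 and 1 to 2 with a library left out. The single lower gene among those that genomes can lack was lost (0) with a mean of at least 10 counts, in the fit of the 6 DMSO libraries and with the replicate block there. Higher hematopoietic genes (2) numbered 1 with a mean of at least 10 counts, and the lower endothelial gene, *EGFL7*, was lost in 5 of the 6 fits that left out a library (0 to 1). Groups with few counts (up to 3 in each library) give bounds or wide intervals.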
